A study of Rattus norvegicus with 10 samples.

Results

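Mitosis genes encode the machinery that carries a cell from entry into mitosis to the separation of its daughters: the cyclin-dependent kinase Cdk1 with its cyclins, the Aurora and Polo-like kinases, the spindle checkpoint, the kinetochore, the kinesin motors, the condensins and the proteins of cytokinesis. A list of 49 such genes was followed in the Wistar rat line HSC-2, an established line of stellate cells, the pericytes of the liver sinusoids. The list was chosen with earlier results of these data known. A gene was taken from the array probe sets to which the platform annotation gives its symbol alone. Where there were several, the probe set with the highest mean over all arrays was taken, a choice of probe set that used no measured change. This gave 42 of the 49 genes, among 13286 genes with a probe set of their own on the array. Anln and Ckap2 lay only on probe sets shared with another symbol, and no named probe set was found for Ndc80, Nek2, Kif4a, Ncapg and Tpx2. These 7 genes have no values here. None of the 42 genes was at the lowest deposited value on any array.

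The study compared 5 lines. The control lines were untransfected HSC-2 cells and HSC-2 cells transfected with a scrambled sequence, named GFPscr in the series text. The 3 other lines were clones of HSC-2, called S1, S4 and S5, transfected to overexpress the rat microRNA rno-miR-146a. Cells were grown in high-glucose medium with serum. RNA of each line was taken at passages 42 and 43, for 10 Affymetrix arrays in all, 1 for each line and passage. Each overexpressing line is a single clone, the labels do not say whether the scrambled line is a clone or a pool, and the titles of the untransfected arrays carry the words replicate 2. The labels do not say whether 2 passages of a line were separate cultures. A p-value between single lines thus reflects the spread between 2 samples of a line, possibly in part a technical one. In fits without a passage term this spread also holds the change between passages that the lines share. Whether the arrays of 1 passage were also processed together is not stated, so passage and processing cannot be told apart. The mature microRNA was not analysed here, so the clones are called overexpressing by their labels alone.

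The deposited values were RMA intensities on a linear scale. They are given below as log2 intensities, on which a difference of 1 is a doubling. Array medians lay between 97.74 and 103.74 intensity units, and 14.4% to 14.9% of the values of an array stood at the floor of 20. Of 11 measured stellate cell markers, 10 had a mean log2 intensity above 8, against 0 of 7 hepatocyte, 1 of 6 macrophage and leukocyte, 0 of 5 endothelial and 0 of 3 biliary markers. The summed intensity of the stellate markers ranged from 119899 to 150699 over the arrays and that of the hepatocyte markers from 399 to 471. The number of arrays limits the precision throughout.

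In dividing cells the transcripts of mitosis genes are made mostly in the later part of the cell cycle and are low in resting cells, so their level in a culture follows how many of its cells are dividing. Many of their promoters carry a cell cycle genes homology region, or CHR, through which the DREAM complex represses them in resting cells and complexes of MuvB with B-Myb and FoxM1 activate them in cycling cells, and CCAAT boxes, which bind the factor NF-Y. In an array of a whole culture, fewer dividing cells and less of a transcript per cell cannot be told apart.

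Genes with values given in full below were eligible here only if their promoter held a CHR, so its presence was fixed by the choice. Whether the elements named above bear on changes between passages was not tested. The promoters of 6 such genes are shown first. They are RefSeq windows of the rat assembly GRCr8, from 250 bases before to 50 bases after the transcription start, written 5′ to 3′ on the strand of the gene. Capitals mark the CHR motif TTTGAA or TTTAAA and the NF-Y box, which reads CCAAT on the strand of the gene and ATTGG on the opposite one. Ccnb1 lies at chr2:33655176-33655475 on the minus strand, Cdk1 at chr20:19265043-19265342 on the plus strand, and Cdc20 at chr5:137255750-137256049 on the minus strand. Kif23 lies at chr8:71320535-71320834 on the minus strand, Mad2l1 at chr4:97236259-97236558 on the plus strand, and Bub1b at chr3:126016817-126017116 on the plus strand.
Ccnb1: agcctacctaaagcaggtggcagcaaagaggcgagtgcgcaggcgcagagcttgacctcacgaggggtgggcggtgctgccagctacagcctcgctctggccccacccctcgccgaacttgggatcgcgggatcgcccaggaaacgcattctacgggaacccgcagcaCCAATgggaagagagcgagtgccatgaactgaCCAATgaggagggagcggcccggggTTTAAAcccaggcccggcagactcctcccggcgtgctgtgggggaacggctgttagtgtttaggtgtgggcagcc
Cdk1: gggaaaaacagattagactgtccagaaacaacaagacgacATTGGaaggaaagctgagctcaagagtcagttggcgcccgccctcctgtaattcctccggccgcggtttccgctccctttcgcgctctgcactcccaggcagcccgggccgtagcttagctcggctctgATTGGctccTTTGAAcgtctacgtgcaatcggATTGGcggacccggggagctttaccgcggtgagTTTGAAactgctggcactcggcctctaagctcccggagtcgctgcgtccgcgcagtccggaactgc
Cdc20: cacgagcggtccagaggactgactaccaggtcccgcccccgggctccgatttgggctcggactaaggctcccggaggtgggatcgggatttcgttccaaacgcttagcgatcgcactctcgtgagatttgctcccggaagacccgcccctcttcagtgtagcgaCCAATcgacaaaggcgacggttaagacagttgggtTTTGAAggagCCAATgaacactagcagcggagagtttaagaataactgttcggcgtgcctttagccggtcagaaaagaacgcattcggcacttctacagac
Kif23: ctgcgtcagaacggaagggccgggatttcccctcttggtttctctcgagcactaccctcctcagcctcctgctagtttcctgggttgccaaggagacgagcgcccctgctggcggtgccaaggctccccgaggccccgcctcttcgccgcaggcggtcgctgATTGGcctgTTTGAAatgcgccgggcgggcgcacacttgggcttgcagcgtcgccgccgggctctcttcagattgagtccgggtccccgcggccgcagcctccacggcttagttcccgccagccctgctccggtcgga
Mad2l1: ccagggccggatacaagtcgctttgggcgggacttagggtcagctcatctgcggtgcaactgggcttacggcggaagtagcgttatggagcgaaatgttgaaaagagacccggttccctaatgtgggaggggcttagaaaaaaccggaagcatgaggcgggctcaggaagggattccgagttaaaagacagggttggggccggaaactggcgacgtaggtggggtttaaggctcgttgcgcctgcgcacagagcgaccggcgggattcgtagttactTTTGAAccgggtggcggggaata
Bub1b: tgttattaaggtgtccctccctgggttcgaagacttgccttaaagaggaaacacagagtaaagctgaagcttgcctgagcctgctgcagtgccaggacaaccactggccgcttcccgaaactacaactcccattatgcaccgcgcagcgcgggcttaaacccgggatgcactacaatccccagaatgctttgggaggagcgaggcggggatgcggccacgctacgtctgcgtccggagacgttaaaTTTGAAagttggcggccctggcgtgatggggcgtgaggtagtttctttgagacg

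Counting the start base as 1, the CHR of Ccnb1 began at -25 behind NF-Y boxes at -82 and -50. Cdk1 held CHR motifs at -72 and -16 and NF-Y boxes at -210, -81 and -49. In Cdc20 a CHR at -51 stood between boxes at -86 and -41. Kif23 had a box at -88 and a CHR at -79. The CHR lay at -4 in Bub1b and at 28, behind the start, in Mad2l1, and neither window held an NF-Y box.

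Promoter windows were matched by symbol for 37 of the 42 measured genes. A CHR, in either form and on either strand, stood in 33 of the 37 (89.2%), against 28.3% of all 33469 windows and 19% of the 10989 windows of genes tested on the array. The form TTTGAA was found in 25 members and TTTAAA, which reads the same on both strands, in 12. At least 1 NF-Y box was present in 29 members (78.4%, against 37.5% of all windows), and 20 held 2 or more (54.1%, against 11.2%). Both motifs together occurred in 27 (73%), against 11.3% of all windows and 7.58% of those of tested genes. In 26 members (70.3%) a CHR began between 60 bases before and 50 bases after the start, against 9.78% of all windows. The windows of Cdca3, Kif18a, Melk and Spc24 held no CHR, and Cdca3 held 3 NF-Y boxes and Spc24 held 2. Ccna2, Aurkb, Incenp, Ube2c and Racgap1 had no matched window. These are matches of letters in a window of 300 bases and show no binding.

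**Figure D1:**
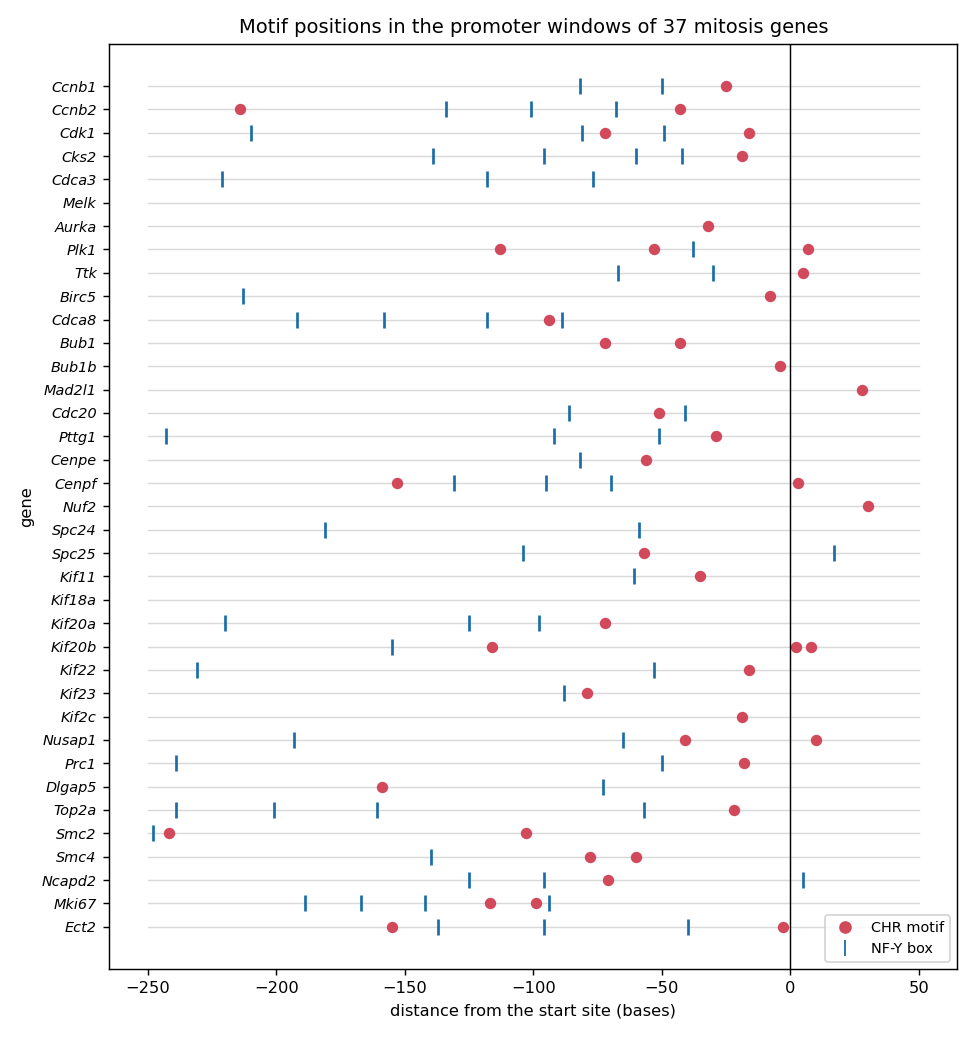
Positions of CHR motifs (dots) and NF-Y boxes (bars) in the promoter windows of 37 mitosis genes, by distance in bases from the transcription start (vertical line); each grey line is 1 window. In 26 of the 37 genes a CHR begins between 60 bases before and 50 bases after the start, and NF-Y boxes reach to -248.

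The clearest pattern over the arrays followed passage. Of the 42 mitosis genes, 32 were lower at passage 43 than at passage 42, 0 were higher and 10 did not pass the test (limma with line as a block, Benjamini-Hochberg adjusted p under 0.05). Over all 27520 tested probe sets, 3.09% were lower and 2.43% higher by the same test. The median difference of the 42 genes was -0.67 in log2 intensity, against 0.0027 over all 13286 genes, and all 42 differences were below 0, from -1.01 for Ccna2 to -0.31 for Nusap1. The unadjusted p was under 0.05 for each of the 42. The calls needed all 3 clones: without any 1 of the 6 clone arrays limma called 0 of the 42 genes and 0 of the 27520 probe sets, although 41 or 42 genes kept an unadjusted p under 0.05 and the median stayed between -0.71 and -0.66. Leaving out an array of the untransfected line left 24 calls and leaving out a scrambled array left 26, while keeping the probe sets at the floor on all arrays gave 5 and dropping the block for line gave 6.

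The genes of mitotic entry were led by Ccna2, the A-type cyclin that acts from S phase into early mitosis. At passage 42 its log2 intensity was 10.40 in the untransfected line, 10.82 in the scrambled line and 10.56, 10.59 and 10.40 in clones S1, S4 and S5. By passage 43 these values were 8.43, 10.28, 9.60, 9.77 and 9.66 in the same order. Every passage 43 array lay below every passage 42 array, and the untransfected line stood lowest by more than 1 log2 unit. The difference was -1.01 (SE 0.19, limma adjusted p 0.0311), lower in 5 of 5 lines.

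Ccnb1, the B-type cyclin whose complex with Cdk1 drives entry into mitosis, showed the same order of lines at passage 43. Its values at passage 42 were 10.36 (untransfected), 10.67 (scrambled), 10.35 (S1), 10.42 (S4) and 10.34 (S5), and at passage 43 they were 8.79, 10.26, 9.41, 9.67 and 9.55. The groups of arrays did not overlap, with the scrambled line highest at both passages. The difference was -0.89 (SE 0.15, limma adjusted p 0.0221), and a further probe set of Ccnb1 gave -0.85 (adjusted p 0.0247).

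Cdk1 itself, the kinase partner of these cyclins, had another order of lines at passage 43. It was nearly even at passage 42, at 11.20 (untransfected), 11.14 (scrambled), 11.19 (S1), 11.15 (S4) and 11.21 (S5). At passage 43 the untransfected and scrambled lines stood at 10.98 and 10.95, and clones S1, S4 and S5 at 10.55, 10.69 and 10.59. Here the 3 clones were the low arrays, as they also were at passage 43 for Cks2, Spc24 and Nusap1. Cdk1 was the 1 gene of the 42 for which the scrambled line was not the highest at passage 43. The difference between passages was -0.43 (SE 0.09, limma adjusted p 0.0397).

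Of the other partners, Ccnb2 (-0.64) and the Cdk subunit Cks2 (-0.60, adjusted p 0.0136) also passed the test. Cdca3, which takes part in the removal of the mitosis inhibitor Wee1, had a larger mean difference of -0.74 but an SE of 0.21 and an adjusted p of 0.0949. Its change between passages ran from -1.83 in the untransfected to -0.27 in the scrambled line. The kinase Melk had a difference of -0.65 (adjusted p 0.0776) and a change of -0.06 in the scrambled line. In this group 5 of 7 genes passed the test, and all 7 differences were below 0.

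Among the mitotic kinases 3 of 4 passed the test, and all 4 differences were below 0. Plk1, the Polo-like kinase of mitotic entry and spindle assembly, was at 9.95 (untransfected), 10.10 (scrambled), 9.94 (S1), 9.72 (S4) and 9.97 (S5) at passage 42. Its passage 43 values were 9.10, 9.67, 9.18, 9.18 and 9.17, all below the lowest passage 42 value. The scrambled array stood apart above 4 arrays that lay within 0.1 of each other, and the difference between passages was -0.68 (SE 0.08, limma adjusted p 0.0111). Aurkb, the kinase of the chromosomal passenger complex, was at 9.87 (untransfected), 9.95 (scrambled), 9.51 (S1), 9.61 (S4) and 9.61 (S5), and then at 8.60, 9.58, 8.94, 9.11 and 8.97. For Aurkb the scrambled array of passage 43 lay above clone S1 at passage 42, and the difference was -0.67 (SE 0.13, limma adjusted p 0.0311). Aurka, which matures the spindle poles, fell by 0.70 (adjusted p 0.0159), and Ttk, the checkpoint kinase Mps1, had a difference of -0.74 that did not pass (adjusted p 0.0596). A second probe set of Ttk gave -0.68 with an adjusted p of 0.0137.

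The partners of Aurkb in the chromosomal passenger complex, which corrects faulty attachments of chromosomes to the spindle, all fell. Their differences were -0.50 for the scaffold Incenp (limma adjusted p 0.015), -0.50 for survivin, Birc5 (adjusted p 0.0361), and -0.58 for borealin, Cdca8 (adjusted p 0.0175). The other 2 probe sets of Incenp disagreed, at -0.57 (adjusted p 0.0107) and -0.18 (adjusted p 0.376).

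All 6 genes of the spindle checkpoint and of anaphase fell, with a median of -0.80. Mad2l1, the checkpoint protein that binds and holds back Cdc20, was at 9.31 (untransfected), 9.56 (scrambled), 9.28 (S1), 9.14 (S4) and 9.24 (S5) at passage 42. It was at 7.68, 9.08, 8.35, 8.52 and 8.40 at passage 43. No passage 43 array reached the passage 42 range, and the difference was -0.90 (SE 0.16, limma adjusted p 0.0245). The other 2 probe sets of Mad2l1 gave -0.83 and -0.85.

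Cdc20, the activator that lets the anaphase promoting complex start anaphase, was at 10.17, 10.47, 10.24, 10.29 and 10.33 in the untransfected line, the scrambled line and clones S1, S4 and S5 at passage 42. The passage 43 values in this order were 8.90, 9.94, 9.38, 9.79 and 9.48, with no overlap. Its difference was -0.80 (SE 0.12, limma adjusted p 0.0163), and its 4 other probe sets gave -0.29 to -0.79.

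Bub1b, which encodes the checkpoint kinase-like protein BubR1, spread most over the lines. At passage 42 it was at 8.80 (untransfected), 9.32 (scrambled), 8.93 (S1), 9.11 (S4) and 9.02 (S5), and at passage 43 at 7.14, 9.17, 8.25, 8.25 and 8.17. The scrambled array of passage 43 lay above 4 of the 5 passage 42 arrays, while the untransfected one was the lowest by about 1 log2 unit. The difference between passages was -0.84 (SE 0.19, limma adjusted p 0.0476), the highest adjusted p among the 32 called genes. In the same group Bub1 fell by 0.79, the ubiquitin-conjugating enzyme Ube2c by 0.69 and securin, Pttg1, by 0.54. Ube2c had the smallest adjusted p of the 42 genes, 0.00984, and its lines moved nearly alike, from -0.91 in S1 to -0.52 in S4.

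**Figure D2:**
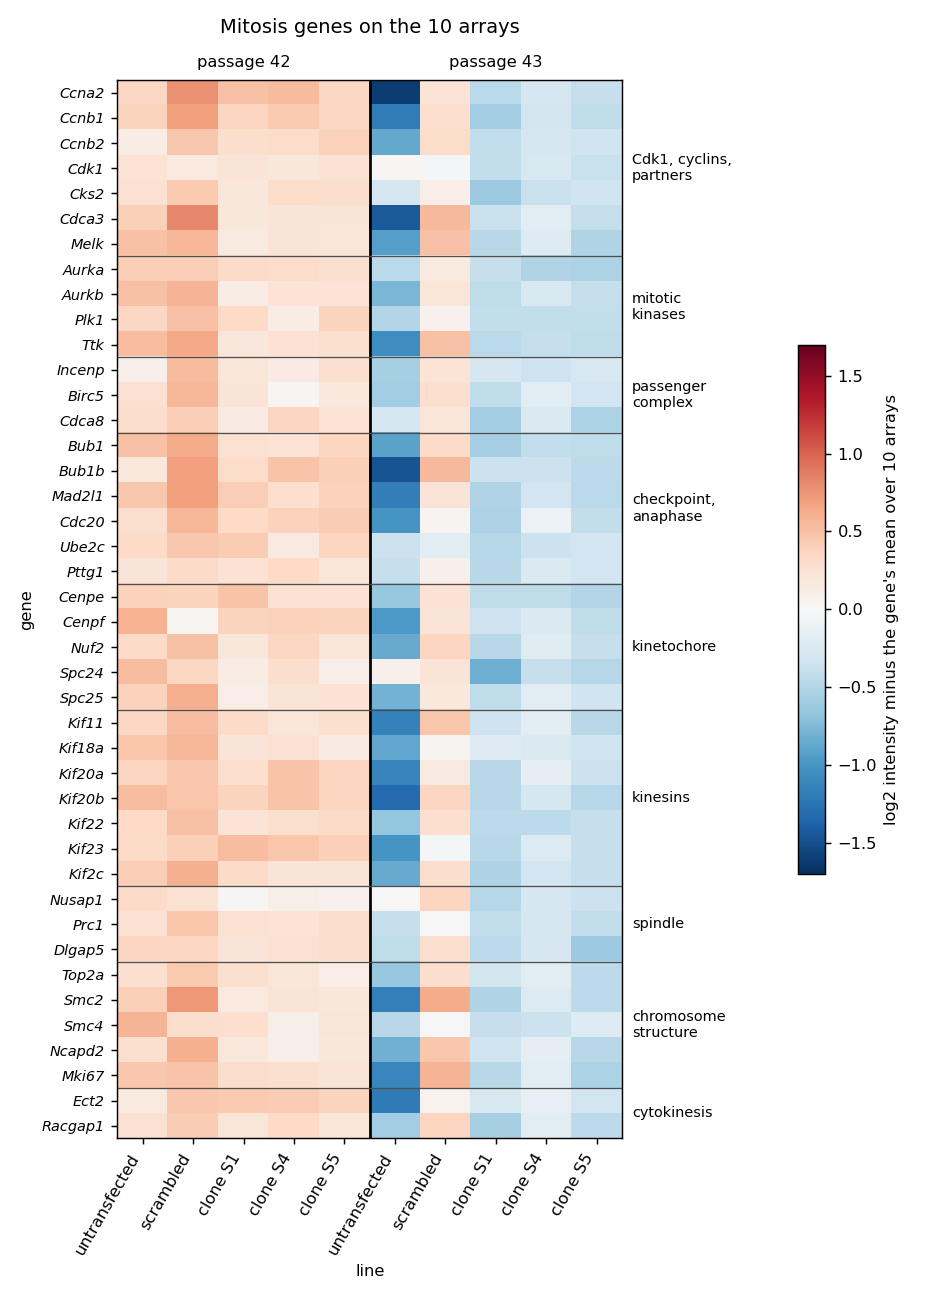
Log2 intensity of the 42 mitosis genes on the 10 arrays, each as the difference from the gene's own mean over the arrays (colour scale), with genes ordered by role and lines ordered alike within each passage. The untransfected column of passage 43 is the darkest blue for most genes and is the lowest array for 32 of the 42.

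At the kinetochore, where spindle microtubules grip the chromosome, all 5 differences were below 0 and 4 of 5 genes passed the test. These were the motor Cenpe (-0.71) and the Ndc80 complex subunits Nuf2 (-0.63), Spc24 (-0.57) and Spc25 (-0.64), with limma adjusted p between 0.0257 and 0.0422. Cenpf, a large protein of the outer kinetochore, had a difference of -0.71 with an adjusted p of 0.105. Its value rose by 0.19 from passage 42 to 43 in the scrambled line and dropped by 1.56 in the untransfected line.

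Of the kinesin motors 5 of 7 passed the test, and all 7 differences were below 0. Kif23, the motor of the centralspindlin complex that organises the midzone for cytokinesis, was at 10.09 (untransfected), 10.17 (scrambled), 10.29 (S1), 10.24 (S4) and 10.16 (S5) at passage 42. Its values at passage 43 were 8.76, 9.73, 9.29, 9.53 and 9.38, below all those of passage 42. The difference was -0.85 (SE 0.12, limma adjusted p 0.0159). Kif20a (-0.79), Kif2c (-0.72), Kif22 (-0.67) and Kif18a (-0.66) also passed. Kif20b had a difference of -0.89, the fourth largest of the 42, and did not pass (SE 0.21, adjusted p 0.0571). Kif11, the motor that pushes the spindle poles apart, gave -0.67 with an adjusted p of 0.0865 on its brightest probe set and -0.69 with 0.0166 on a second one.

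Of the spindle proteins, Prc1, which bundles microtubules of the midzone, fell by 0.60 with an SE of 0.06 (limma adjusted p 0.01), and Dlgap5 fell by 0.59. Nusap1 had the smallest difference of the 42 genes. Its values at passage 42 were 9.86 (untransfected), 9.80 (scrambled), 9.55 (S1), 9.63 (S4) and 9.61 (S5), and at passage 43 they were 9.53, 9.90, 9.05, 9.25 and 9.17. The scrambled line was slightly higher at passage 43, and the mean difference of -0.31 did not pass (SE 0.09, adjusted p 0.112). Both cytokinesis genes fell: the exchange factor Ect2, which activates RhoA at the cleavage furrow, by 0.75 and its partner Racgap1 by 0.57.

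Among genes of chromosome structure 2 of 5 passed the test, and all 5 differences were below 0. Top2a, the topoisomerase that untangles sister chromatids, was at 10.49 (untransfected), 10.66 (scrambled), 10.49 (S1), 10.42 (S4) and 10.33 (S5), and then at 9.57, 10.52, 9.91, 10.02 and 9.77. Its scrambled array of passage 43 stood within the passage 42 range, and the difference was -0.52 (SE 0.11, limma adjusted p 0.0391). The condensin core subunit Smc4 fell by 0.58, while the condensin genes Smc2 (-0.69, adjusted p 0.0807) and Ncapd2 (-0.54, adjusted p 0.0627) did not pass.

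Mki67, whose product Ki-67 coats mitotic chromosomes and is the usual marker of proliferating cells, did not pass either. Its values at passage 42 were 10.82 (untransfected), 10.85 (scrambled), 10.66 (S1), 10.64 (S4) and 10.58 (S5). At passage 43 they were 9.25, 10.94, 9.90, 10.18 and 9.83. The scrambled line was at its higher value at passage 43, and the untransfected line dropped by 1.57. The mean difference was -0.69 (SE 0.21, limma adjusted p 0.105).

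**Figure D3:**
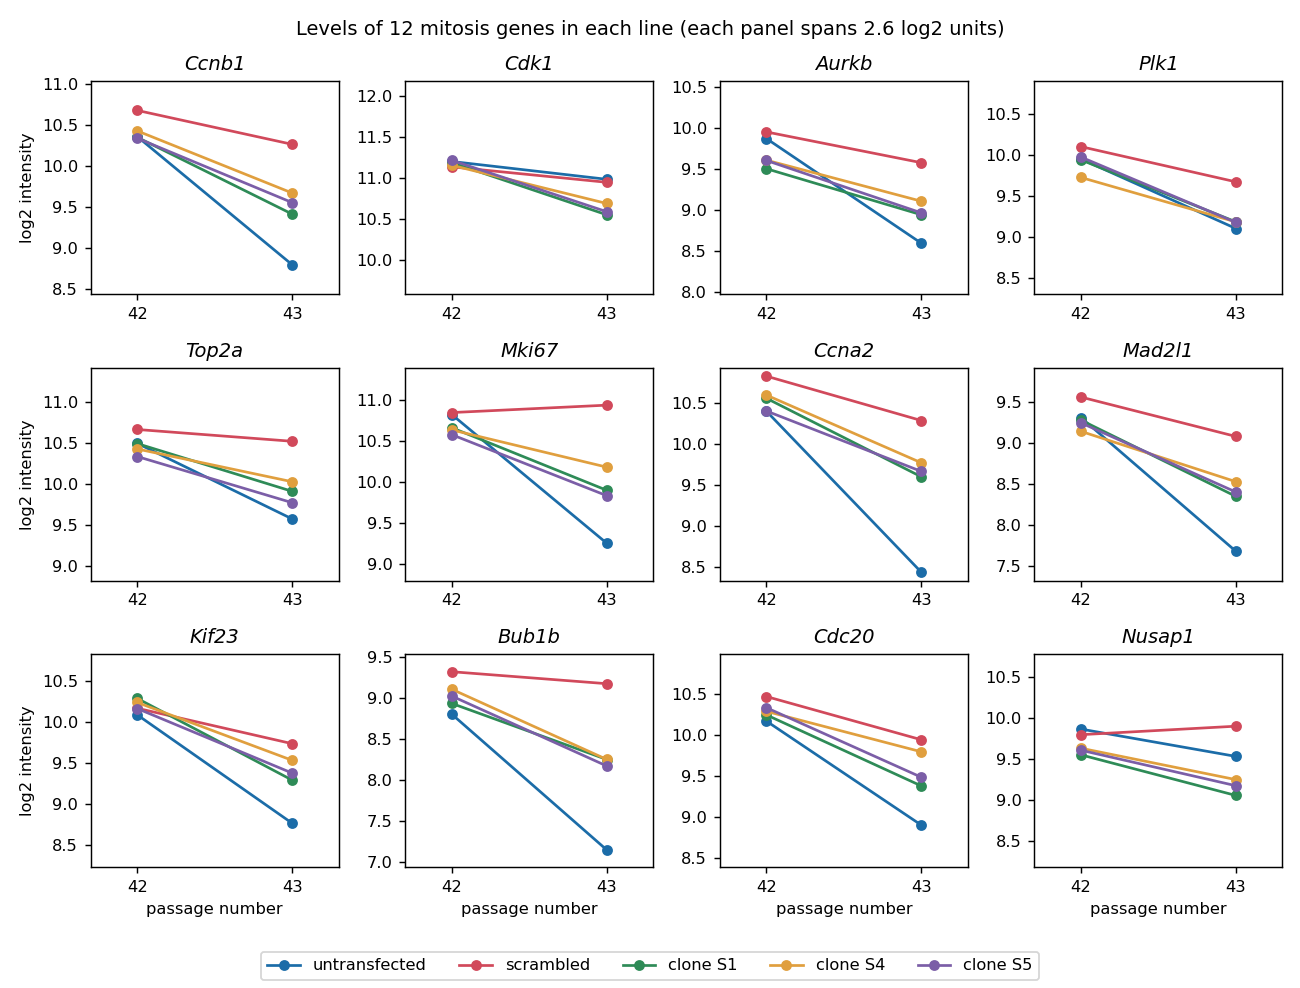
Log2 intensity of 12 mitosis genes at passages 42 and 43 (points, 1 array each), with a line joining the 2 arrays of each cell line; every panel spans 2.6 log2 units. The untransfected line falls most steeply for genes such as Ccna2, Mad2l1 and Bub1b. The scrambled line is the highest at passage 43 except for Cdk1, and Mki67 and Nusap1 rise slightly in the scrambled line.

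The 17 further probe sets of 12 of these genes were all lower on average at passage 43, and 14 of them passed the test. On the chosen probe sets, 39 of the 42 genes were lower at passage 43 in all 5 lines, which held for 11.0% of all tested probe sets. The exceptions were Cenpf, Nusap1 and Mki67, each higher in the scrambled line by 0.09 to 0.19. For 18 of the 42 genes all 5 arrays of passage 43 lay below all 5 of passage 42, against 2.55% of tested probe sets.

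The size of the change differed by line. The median change of the 42 genes between passages was -1.18 in the untransfected line, with a range from -1.97 (Ccna2) to -0.22 (Cdk1). It was -0.24 in the scrambled line, from -0.64 to 0.19. The clones lay between, at -0.71 for S1, -0.55 for S4 and -0.71 for S5, and each of the 42 genes was lower at passage 43 in each clone. The untransfected line had the largest fall of the 5 for 33 genes, against 26.8% of tested probe sets. The scrambled line had the smallest fall, or a rise, for 37, against 23.2%. With 1 array for each line and passage the difference between the untransfected and the scrambled line in this change was not tested. With the 3 clones alone, an alternative chosen after the data were seen, limma called 34 of the 42 genes lower at passage 43, against 1.73% of tested probe sets, with a median of -0.67. With the 2 control lines alone, chosen likewise, it called 0 of the 42 and 0 of all 27520 probe sets, with 7 members at an unadjusted p under 0.05 and a median of -0.68.

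**Figure D4:**
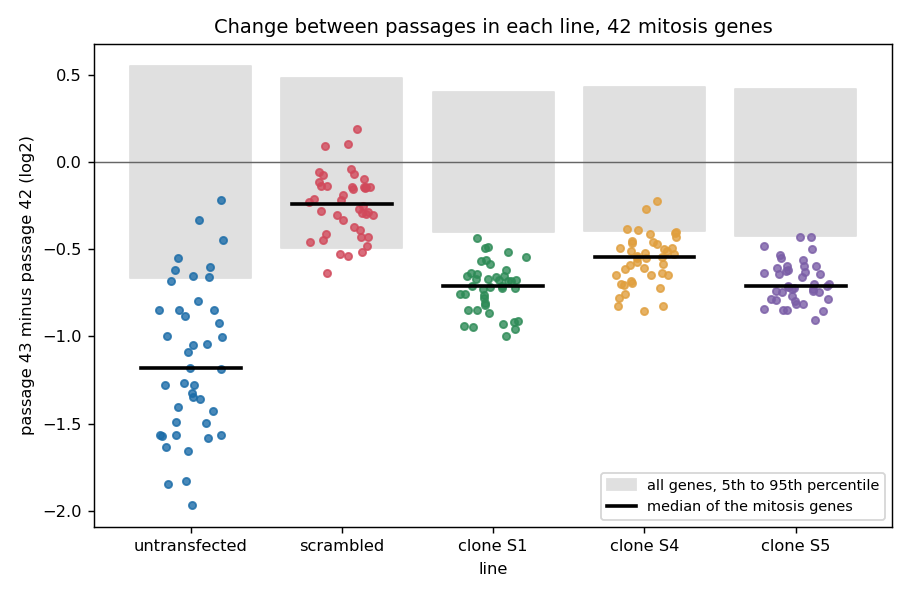
Change in log2 intensity from passage 42 to passage 43 for each of the 42 mitosis genes (points) in each line, with the median of these genes (black bars) and the range of all genes from the 5th to the 95th percentile (grey). The median is -1.18 in the untransfected line and -0.24 in the scrambled line, where most points stay within the grey range, and the clones lie between.

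The lines stood close together at passage 42 and apart at passage 43. The median over the 42 genes of the range between the highest and the lowest line was 0.33 at passage 42 and 1.01 at passage 43, against 0.35 and 0.43 over all genes. The range was larger at passage 43 for 41 of the 42 genes, with Ube2c the exception, against 60.5% of tested probe sets. It reached 2.03 for Bub1b, 1.97 for Cdca3 and 1.85 for Ccna2, and was smallest for Ube2c at 0.30. At passage 43 the scrambled line was above all 3 clones and the untransfected line below all 3 for 32 of the 42 genes, an order held by 10.6% of tested probe sets. At passage 42 it held for 6 of the 42, against 9.12%. The untransfected array of passage 43 was the lowest of all 10 arrays for 32 genes, against 19.7% of tested probe sets. The 10 others were Cdk1, Cks2, Aurka, Cdca8, Ube2c, Pttg1, Spc24, Nusap1, Prc1 and Dlgap5, in which at least 1 clone array of passage 43 was lower.

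The question named by the series title is what overexpression of miR-146a changes. On the 5 line means, each over both passages, limma called 0 of the 42 mitosis genes higher and 0 lower in the 3 clones than in the 2 control lines, with 3 genes at an unadjusted p under 0.05. Over all tested probe sets 0.603% were higher and 0.294% lower. The median difference of the 42 genes was -0.16 (all genes, -0.02), 35 differences were below 0, and they ran from -0.49 for Spc24 to 0.22 for Ect2. For 0 of the 42 genes did all 6 clone arrays lie below all 4 control arrays, against 3.44% of tested probe sets.

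The genes with the smallest p were Nusap1, Spc24 and Cdk1. Nusap1 averaged 9.38 ± 0.07 in the clones (SD, n = 3 lines) and 9.77 ± 0.11 in the control lines (SD, n = 2 lines), a difference of -0.40 (SE 0.08, limma adjusted p 0.128). Spc24 was at 11.15 (untransfected), 10.97 (scrambled), 10.74 (S1), 10.92 (S4) and 10.73 (S5) at passage 42 and at 10.70, 10.83, 9.79, 10.22 and 10.13 at passage 43. Within each passage its clones were below both control lines, and the difference of the line means was -0.49 (SE 0.11, limma adjusted p 0.136). Cdk1 differed by -0.17 (SE 0.06, adjusted p 0.296). Ccnb1 differed by -0.06 (adjusted p 0.937), Aurkb by -0.21 (0.608), Plk1 by -0.18 (0.562), Top2a by -0.15 (0.737) and Mki67 by -0.17 (0.811).

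The direction of this comparison changed with the control line used. The SD over the line means was larger between the 2 control lines than among the 3 clones for 41 of the 42 genes, Spc24 being the exception, with medians of 0.42 and 0.07. Without the untransfected line the median was -0.45, and limma called 11 of the 42 genes lower (2.82% of tested probe sets). Without the scrambled line the median was 0.14, and 5 genes were called higher (5.63%). In both fits the lone control line is assumed to vary like the clones. Leaving out only the untransfected array of passage 43 gave a median of -0.43 and 4 genes lower (0.327%), and leaving out that of passage 42 gave a median of 0.11 and 0 calls, with 2 at an unadjusted p under 0.05. With the 10 arrays as separate samples and passage as a replicate block, 2 genes were called lower, near the 3.01% of all tested probe sets.

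Against the scrambled line alone, all 42 genes were lower in the mean of the clones, with a median of -0.45 (all genes, -0.02) and values from -0.79 to -0.11. On the spread between passages limma called 0 of the 42, with 1 at an unadjusted p under 0.05, while 3.93% of tested probe sets were higher and 2.97% lower. The smallest p belonged to Nusap1 (-0.47, SE 0.19, adjusted p 0.208), Ncapd2 (-0.62, SE 0.30, 0.31) and Smc2 (-0.79, SE 0.39, 0.328). Ncapd2 was at 9.53 and 9.38 in the scrambled line and Smc2 at 10.09 and 9.99, above every clone array of either gene. Among the genes given in each comparison, Ccnb1 differed by -0.51, Cdk1 by -0.14, Aurkb by -0.48, Plk1 by -0.36, Top2a by -0.43 and Mki67 by -0.59, with adjusted p from 0.455 to 0.803. With passage as a replicate block, Incenp (-0.43, limma adjusted p 0.02), Birc5 (-0.51, 0.0451) and Nusap1 (-0.47, 0.0496) were called lower, and 4.95% of all tested probe sets were too. On line means, with the spread between the clones, the fit is that without the untransfected line given above, with 11 called lower.

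Against the untransfected line the same clone arrays gave a median of 0.14 (all genes, -0.02), with 33 of the 42 genes above 0 and values from -0.50 for Spc24 to 0.68. Limma called 0 of the 42 and had 0 at an unadjusted p under 0.05, where 4.12% of tested probe sets were higher and 4.51% lower. Nusap1 (-0.32, adjusted p 0.346), Spc24 (-0.50, 0.355) and Ect2 (0.61, 0.389) had the smallest p. The differences were 0.38 for Ccnb1, -0.20 for Cdk1, 0.06 for Aurkb, 0.0038 for Plk1, 0.13 for Top2a and 0.26 for Mki67, with adjusted p from 0.668 to 0.999. The direction rested on single arrays of the untransfected line. Without that of passage 42 the median was 0.76, with 1 gene called higher (5.88% of tested probe sets), and without that of passage 43 it was -0.41, with 0 called. On line means the fit is that without the scrambled line, with 5 called higher.

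The control lines also differed from each other. In the scrambled line 40 of the 42 genes were above the untransfected line, with a median of 0.60 (all genes, 0.002), the 2 others being Cdk1 (-0.05) and Spc24 (-0.02). Limma, in a fit with no passage term, called 0 of the 42 and had 0 at an unadjusted p under 0.05, while 2.23% of tested probe sets were higher and 3.87% lower. For 13 of the 42 genes both scrambled arrays were above both untransfected arrays, against 21.8% of tested probe sets. The smallest p belonged to Bub1b (1.27, SE 0.55, adjusted p 0.224), Cdca3 (1.19, SE 0.53, 0.234) and Ncapd2 (0.81, SE 0.37, 0.242). Cdca3 was at 10.35 and 8.52 in the untransfected line at passages 42 and 43 and at 10.76 and 10.49 in the scrambled line. The differences of Ccnb1 (0.89), Aurkb (0.53), Plk1 (0.36), Top2a (0.56) and Mki67 (0.85) had adjusted p from 0.363 to 0.653.

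With passage as a replicate block, limma called 6 genes higher in the scrambled than in the untransfected line, where 5.63% of all tested probe sets were higher. They were Ccna2 (1.14, adjusted p 0.0493), Ccnb1 (0.89, 0.0479), Ccnb2 (0.75, 0.0377), Incenp (0.62, 0.0121), Bub1b (1.27, 0.0326) and Ncapd2 (0.81, 0.0453). Without the untransfected array of passage 42, 2 were called higher (5.01% of tested probe sets), with a median of 1.18, and without that of passage 43 it was 0, with a median of 0.02. These comparisons share arrays: the clones enter against each control line, and the control lines enter against each other too.

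The 3 clones differed little among themselves. The median range of the 42 genes over the clone means was 0.13, as over all genes (0.13), and the F test called 0 of the 42, with 0 at an unadjusted p under 0.05, against 0.0327% of tested probe sets. The ranges were largest for Spc24 (0.31), Cdca8 (0.29) and Racgap1 (0.25), all with an adjusted p of 1. They were 0.17 for Ccnb1, 0.05 for Cdk1, 0.13 for Aurkb, 0.12 for Plk1, 0.17 for Top2a and 0.20 for Mki67.

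The change between passages was also compared between the clones and the control lines by an interaction term. It called 0 of the 42 genes, with 2 at an unadjusted p under 0.05, against 0.0109% of tested probe sets with a higher and 0.00727% with a lower value in the clones. The median of the difference was 0.09 (all genes, 0.02), and its sign turned with the control line used. Without either untransfected array it was -0.40, with 25 genes at an unadjusted p under 0.05, and without either scrambled array it was 0.56, with 27, while limma called 0 of the 42 genes and 0 of all probe sets in each case. Cdk1 changed by -0.58 in the clones and by -0.20 in the control lines, a difference of -0.37 (SE 0.12, limma adjusted p 0.512). For Spc24 the changes were -0.75 and -0.29 (difference -0.46, adjusted p 0.555) and for Cks2 -0.71 and -0.44 (-0.27, 0.643). The differences were 0.16 for Ccnb1, 0.26 for Aurkb, -0.06 for Plk1, 0.02 for Top2a and 0.09 for Mki67, with adjusted p from 0.826 to 0.99.

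Genes around this list were read in the same way between passages, where 3.09% of all tested probe sets were lower and 2.43% higher. Of 77 other measured mitosis genes, 55 were lower at passage 43 and 0 higher (median -0.60). The largest falls among those called were Shcbp1 (-1.11), the kinetochore gene Ska3 (adjusted p 0.0368), the checkpoint ATPase gene Trip13 (-0.95) and Pimreg (-0.94). Of 57 DNA replication and S phase genes 32 were lower and 0 higher (median -0.55). Here the called genes with the largest falls were the origin recognition gene Orc1 (-1.18), Hells (-0.90), the chromatin assembly gene Chaf1a (-0.78) and the licensing factor Cdt1 (-0.76). The untransfected array of passage 43 had Orc1 at the floor, so its value there has no order below it.

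Regulators of the transcription of mitosis genes were mixed, with 7 of 21 lower (3.09% of tested probe sets) and 1 higher (2.43%). Mybl2, which encodes B-Myb, was at 8.50, 8.77, 8.55, 8.31 and 8.46 in the untransfected line, the scrambled line and clones S1, S4 and S5 at passage 42. It was at 7.28, 8.10, 7.69, 7.69 and 7.71 at passage 43, with no overlap, a difference of -0.82 (SE 0.09, limma adjusted p 0.0107). Foxm1, the forkhead activator of these genes, fell by 0.67 (adjusted p 0.0223), the repressor E2f7 by 0.68 and the activator E2f1 by 0.58. Rb1, the retinoblastoma protein that restrains E2F factors, rose by 0.47 (adjusted p 0.033).

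Few genes of the remaining lists were called between passages, and in lists this small 1 call lies near the 3.09% of all tested probe sets called lower. Of 16 genes of the anaphase promoting complex 1 was lower, Ube2s (-0.29), with a median of -0.15. Of 11 D cyclins and Cdk inhibitors 1 was lower, Cdkn2c (-0.27), with a median of -0.04. None of 11 stellate cell markers was called, with 3 at an unadjusted p under 0.05 and a median of 0.05, and 0 of 7 hepatocyte, 0 of 6 macrophage and leukocyte, 0 of 5 endothelial and 0 of 3 biliary markers were, with 1 macrophage and 1 endothelial marker at an unadjusted p under 0.05. By line, the median change of the S phase genes was -0.96 in the untransfected line, -0.25 in the scrambled line and -0.60, -0.43 and -0.57 in clones S1, S4 and S5. The other mitosis genes stood at -0.89, -0.28, -0.60, -0.46 and -0.58 in the same order.

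**Figure D5:**
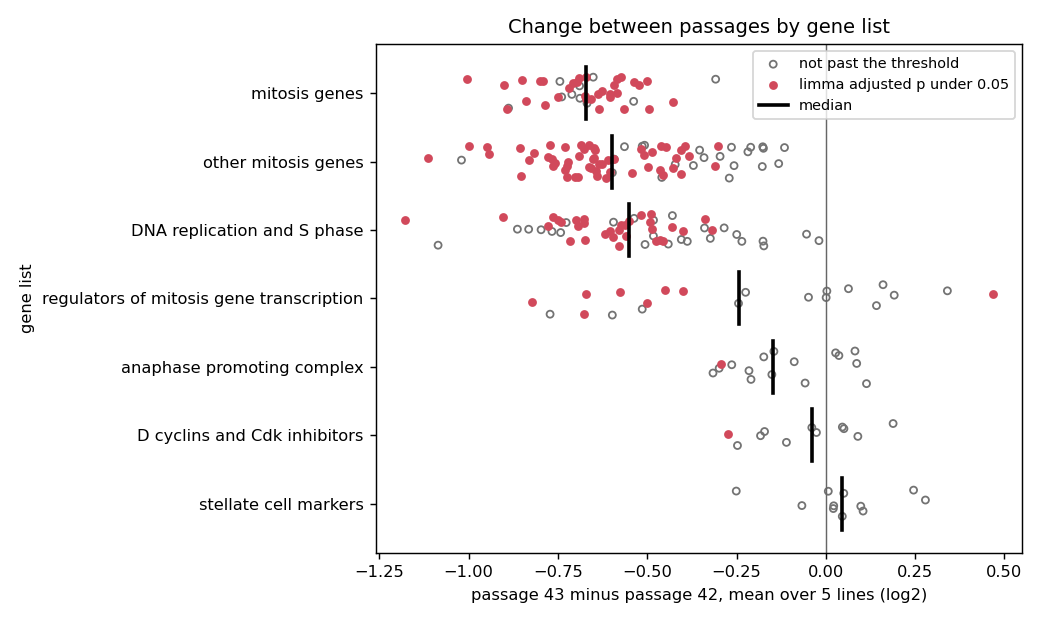
Mean change in log2 intensity from passage 42 to 43 over the 5 lines for each gene (points; filled where the limma adjusted p is under 0.05) of 7 lists, with each list's median (black bars). The mitosis, other mitosis and S phase genes lie to the left of 0, at medians of -0.67, -0.60 and -0.55, and the stellate cell markers lie around 0.

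In comparisons with a single line limma called 0 of the 77 other mitosis and 0 of the 57 S phase genes. Of the S phase genes, 12 had an unadjusted p under 0.05 in the scrambled against the untransfected line (median 0.76). Of 11 D cyclins and Cdk inhibitors, 1 was higher and 1 lower there, against 2.23% and 3.87% of tested probe sets. In the clones 2 were lower than in the scrambled line (2.97%). Against the untransfected line 1 was higher and 1 lower in the clones (4.12% and 4.51%). The p-values given for called genes rest on the spread between passages of single lines. E2f2, an activator of S phase genes, was higher in the scrambled than in the untransfected line by 2.80 (SE 0.39, limma adjusted p 0.00754). Its values were 5.59 and 4.32, the floor, in the untransfected line and 7.95 and 7.56 in the scrambled line, with the 6 clone arrays between, from 5.96 to 6.60. The value at the floor is only an upper limit. In the clones E2f2 was lower than in the scrambled line (-1.44, limma adjusted p 0.0338) and higher than in the untransfected line (1.35, adjusted p 0.039), the order in which most mitosis genes stood at passage 43.

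Ccnd2, a D cyclin that acts earlier in the cycle, had another order. It was at 8.51 and 8.73 in the untransfected line at passages 42 and 43 and at 7.48 and 7.67 in the scrambled line. The clones were lower, at 6.71 and 6.43 (S1), 5.15 and 5.44 (S4) and 6.98 and 6.82 (S5). The clones differed by -1.32 from the scrambled line (limma adjusted p 0.00102) and by -2.37 from the untransfected line (adjusted p 9.4e-05). No clone array was as high as a control array. The clone means themselves spanned 1.61 (F test among clones, limma adjusted p 0.0501). On the 5 line means, clones against both control lines, limma called 0 of the 11 D cyclins and Cdk inhibitors. Ccnd1 was also lower in the clones than in the scrambled line (-0.51, adjusted p 0.029). The Cdk inhibitor gene Cdkn2c was higher than in the untransfected line in the scrambled line by 0.79 (adjusted p 0.0429) and in the clones by 0.66 (adjusted p 0.0332). One subunit gene of the anaphase promoting complex, Anapc5, was lower in the clones than in the scrambled line (-0.49, adjusted p 0.00893).

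Markers of the stellate cell itself also differed between lines. In the scrambled line 2 of the 11 stellate markers were called lower than in the untransfected line, against 3.87% of tested probe sets. They were the contractile genes Acta2 (-2.89, limma adjusted p 0.000171) and Tagln (-2.08, adjusted p 0.00182). The matrix enzyme gene Lox was the 1 marker called higher (0.86, adjusted p 0.044), against 2.23% of tested probe sets. Acta2 was at 12.91 and 13.23 in the untransfected line, at 10.13 and 10.22 in the scrambled line, and from 12.19 to 12.74 in the clones. Against the scrambled line, limma called 2 of the 11 stellate markers higher and 1 lower in the clones (3.93% and 2.97% of tested probe sets). Of 6 macrophage and leukocyte markers, Csf1r was called higher in the scrambled than in the untransfected line, by 0.78 (adjusted p 0.0325), where 2.23% of tested probe sets were higher. The part of these differences in the levels of the mitosis genes was not tested.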

How the data were processed

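Biotin-labelled total RNA of 10 samples was hybridised to Affymetrix arrays, per the labels' protocols. The authors deposited linear intensities with a floor of 20, and the submitters' processing notes name RMA. The sources used here do not give the RMA version or how a linear scale was reached. Log2 of the deposited intensities was taken.

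From 31099 probe sets, 3522 that stood at the floor on every array and 57 controls of the array were removed. The other 27520 were tested with limma 3.58.1 in R 4.3.3 (lmFit, eBayes, Benjamini-Hochberg over all tested probe sets, adjusted p under 0.05). Clones and both control lines were set against each other on 5 line means (3 residual degrees of freedom), single lines on 10 arrays with 1 coefficient a line (5), and passages with line as a block (4). Gene names came from the platform annotation, and 1 probe set a gene was used, that with the highest mean.

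The members and gene lists were chosen with earlier results of these data known. By rule, values on every array were given for up to 6 called members in each direction of a comparison, or else the 3 of smallest p, with Ccnb1, Cdk1, Aurkb, Plk1, Top2a and Mki67 always, and from other lists up to 4 called genes by size. Some further members, such as Spc24 and Kif20b, were described after their values were seen.

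Deviations at a passage correlated between lines, at 0.136 to 0.648 over the 10 pairs of lines. The passage number thus met the rule for pairing samples. The single-line fits had no passage term. For the mitosis genes, values with passage as a block are given beside them where they changed a call. For genes of the other lists no such values were examined. Alternatives were another normalisation, filter, offset, variance prior and probe set, passage as a block, and leaving out each array and line. Comparisons within 1 passage, the clones alone and the control lines alone were added after the data were seen. The fit was tested on simulated data. Promoters were searched with Python 3.11.15.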

Additional observations from a re-analysis of the deposited data

Results flagged for a closer look

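Over the 5 arrays of each passage, 6 of 84 sets of values had 1 array set apart from the others by a gap larger than the 95% critical value of Dixon's test, where chance gives about 5%. At passage 43 it was the scrambled array in all 4 cases: Aurka at 9.14 (next highest 8.59), Plk1 at 9.67 (9.18), Cenpe at 8.41 (7.74) and Kif22 at 10.03 (9.35), in log2 intensity. At passage 42, Ccnb1 was set apart at 10.67 in the scrambled line (next highest 10.42) and Ect2 at 10.71 in the untransfected line (next lowest 10.93).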

How the results depend on the processing

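The number of mitosis genes called lower at passage 43 was 32 with all arrays. It was 33 after quantile normalisation, 31 with 32 added before the logarithm, 35 with a trended and robust prior, 37 with only probe sets above a mean log2 intensity of 6, and 32 with the probe set of largest variance. It fell to 5 when probe sets at the floor on all arrays were kept and to 6 without the block for line. With 1 array left out it ranged from 0 to 26, and without the line of clone S1, S4 or S5 it was 0, against 24 without the untransfected and 26 without the scrambled line. The 2 control lines alone gave 0. The median stayed between -0.77 and -0.55 over these settings, and among the members given in full none turned to a rise.

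For the clones against both control lines, 0 calls became 11 without the untransfected line, 5 without the scrambled line, and 2 with the arrays as separate samples and passage as a replicate block. With 1 array left out the calls ranged from 0 to 4. Line as a random block gave 0 (correlation 0.0485), also with the passage as a replicate block (0.21), and so did passage 42 alone (11 genes at an unadjusted p under 0.05) and passage 43 alone (3). For the clones against the scrambled line the replicate block gave 3 calls and the line means 11. For the clones against the untransfected line the line means gave 5, the replicate block 0, and leaving out 1 array 0 to 1. For the scrambled against the untransfected line the replicate block gave 6, and leaving out 1 array 0 to 2. The replicate block changed no call for the differences among clones. Where no reason is named, the cause of a change was not tested. With 1 array per line and passage, a lone array is assumed to vary like the others.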
